A study of Mus musculus with 19 samples.

Results

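The genes described here are 10 neuronal immediate early genes, namely Fos, Fosb, Junb, Arc, Egr1, Egr2, Egr4, Npas4, Nr4a1 and Ier2. They were chosen by name, with earlier results of these data known. The genes were found by Ensembl identifier among 48709 genes counted in the CA1 region of the hippocampus of 19 male mice. All 10 were among the 19286 genes that passed the filter on low counts (5 or more reads in 50% or more of libraries). The mice were C57B/6J wild types whose dorsal hippocampus had been injected on both sides with lipid nanoparticles. Young mice of 3 months (n = 6) and old control mice of 16.5 months (n = 6) received scrambled control oligonucleotides. Old anti-miR-mix mice of 16.5 months (n = 7) received the inhibitors, directed against miR-146a-5p, miR-181a-5p and miR-148a-3p. The mice of the study were housed singly, and mice of these 3 kinds were trained in the water maze after injection. Whether the 19 mice sequenced were among those trained, and if so how long before collection of the tissue, is not given in the sources used here. The data compare the genes between young and old tissue and between old tissue with and without the inhibitors.

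Immediate early genes are transcribed within minutes of synaptic activity, without new protein synthesis, from promoters that are already bound by factors such as CREB and SRF. Calcium entering through NMDA receptors and voltage-gated channels activates kinases that phosphorylate these factors. Most of the members encode transcription factors that switch on a later wave of genes, whereas Arc encodes a synaptic protein that takes part in the removal of AMPA receptors. In the hippocampus these RNAs are short lived and rise after exploration, learning, handling or seizures, so that a level at death reflects the preceding minutes to hours.

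RefSeq (GRCm38.p6) gave a start-site window for 7 members, and no window was given for Arc, Egr1 and Ier2. The 250 bases before the start are shown for Fos, Junb, Egr4 and Nr4a1, which have 1 window each, free of their own annotated exons. These windows carry short sequences of the kind by which CREB family factors recognise activity-regulated promoters. Fosb, whose window overlaps exons, and Egr2, which has several windows, carry such sequences too but are not shown. The Npas4 window overlaps an annotated exon, so only 30 bases around its sites are shown. Capitals mark the cyclic AMP response element (CRE) in its partial form TGACG, or CGTCA on the other strand, its extension to the core TGACGT or ACGTCA, and the TATA box TATAAA on the strand of the gene. Each core contains a partial site.

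Fos, chr12:85473640-85473889, + strand: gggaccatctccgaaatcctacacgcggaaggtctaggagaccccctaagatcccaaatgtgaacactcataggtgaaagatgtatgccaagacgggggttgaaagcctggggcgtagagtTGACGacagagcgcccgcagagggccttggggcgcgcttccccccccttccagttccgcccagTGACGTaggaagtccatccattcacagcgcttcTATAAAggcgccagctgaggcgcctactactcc

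Junb, chr8:84978749-84978998, - strand: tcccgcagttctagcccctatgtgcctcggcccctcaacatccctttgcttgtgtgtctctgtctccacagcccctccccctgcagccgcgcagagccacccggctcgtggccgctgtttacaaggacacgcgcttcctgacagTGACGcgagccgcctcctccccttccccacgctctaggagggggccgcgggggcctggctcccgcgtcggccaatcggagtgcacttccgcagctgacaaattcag

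Egr4, chr6:85513590-85513839, - strand: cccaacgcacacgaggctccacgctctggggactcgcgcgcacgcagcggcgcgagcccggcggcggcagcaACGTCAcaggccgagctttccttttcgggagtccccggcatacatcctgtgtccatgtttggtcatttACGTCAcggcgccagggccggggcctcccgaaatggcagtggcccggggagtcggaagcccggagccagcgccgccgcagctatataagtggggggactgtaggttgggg

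Nr4a1, chr15:101266596-101266845, + strand: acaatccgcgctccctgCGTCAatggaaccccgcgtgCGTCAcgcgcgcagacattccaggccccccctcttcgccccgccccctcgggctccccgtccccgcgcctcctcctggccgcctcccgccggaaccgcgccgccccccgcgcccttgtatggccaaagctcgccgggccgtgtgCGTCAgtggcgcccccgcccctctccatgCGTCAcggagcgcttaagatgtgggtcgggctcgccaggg

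Npas4, chr19:4990129-4990158, - strand: ccgttcgACGTCAcgggaTGACGTcggaag

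The partial site was present in the windows of all 7 members, a gene being counted if any of its windows held the letters. Egr2 has 5 windows and the others 1 each. Across 26994 genes with a window of the same length 19.8% were counted in this way. The core was present in 4 of the 7 members (Fos, Egr4, Npas4 and 3 of the 5 Egr2 windows), against 7.29% of genes. Fos held 1 core, 61 to 66 bases before the start, and a TATA box 28 to 33 bases before it. Egr4 and Npas4 each held 2 separate cores. The share of genes with 2 or more cores was 2.07%, but it also counts each full palindrome as 2 overlapping cores. The share with separate cores was not computed. Nr4a1 held 4 partial sites and no core, and Junb held 1 partial site. The full palindrome TGACGTCA was in none of the 7, against 1.77% of genes. The CArG box, bound by SRF, lay in 1 member (4 of the 5 Egr2 windows), against 1.63% of genes, and a site of the EGR family lay in 2 (Fosb and Nr4a1), against 3.48%. A match of letters is a description and no evidence of binding, and the windows reach only 250 bases.

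The microRNAs that the oligonucleotides block are shown with the seed, bases 2 to 8, in capitals. The seed is the part that pairs with a target. A pair that shares 1 seed, miR-132-3p and miR-212-3p, is shown because both lie inside 1 of the genes most like the members in the data.

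mmu-miR-181a-5p: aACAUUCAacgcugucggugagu

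mmu-miR-148a-3p: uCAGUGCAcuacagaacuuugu

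mmu-miR-146a-5p: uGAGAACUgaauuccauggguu

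mmu-miR-132-3p: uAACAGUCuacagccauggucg

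mmu-miR-212-3p: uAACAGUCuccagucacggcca

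The longest annotated 3′UTR of each of the 10 members was searched for the complement of the seeds. A match to miR-181a-5p was present in 1 member (Fos), to miR-148a-3p in 2 (Fosb and Egr2) and to miR-146a-5p in 1 (Npas4), against 18.0%, 14.9% and 12.4% of 15308 tested genes with a 3′UTR. The other 6 members had no match to any of the 3 seeds. The matching sites are shown with the match in capitals, since a seed match is the kind of site with which these microRNAs can pair.

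Fos, chr12:85477046-85477075, + strand, miR-181a-5p match: gtcgaggtggtcTGAATGTtctgacattaa

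Fosb, chr7:19302715-19302744, - strand, miR-148a-3p match: cccccttggttcTGCACTGtcgccaataaa

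Egr2, chr10:67541670-67541699, + strand, miR-148a-3p match: gtatttttgatgTGCACTGctctccgagtt

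Npas4, chr19:4984736-4984765, - strand, miR-146a-5p match: tgggcctgggccAGTTCTCcactcctaggg

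The Npas4 3′UTR also held 1 match to the seed of miR-132-3p and miR-212-3p, found in 12.4% of genes.

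Libraries held between 26653511 and 38908947 reads assigned to genes, and the members were covered by between 61 reads (Egr2) and 23463 reads (Arc) in a library. All 8 CA1 pyramidal marker genes were detected, with a summed level between 875 and 1250 reads scaled to library size (CPM), and the 8 dentate granule markers summed to between 165 and 284 CPM. In bulk tissue, fewer cells of a type and less RNA per cell cannot be told apart. Old control replicates 5 and 6 were far more alike than any other pair of a group (chi-square per degree of freedom 2.18, next lowest 6.1), and results were also computed with both as 1 library. A number from 1 to 4 per library was read from the deposited log2 table, called the processing group here, and its level 3 holds no old control library. What this number stands for is not given in the sources used here. The library labelled young replicate 4 stood apart from the rest in the members, as described next, and each comparison with young is therefore given with and without it.

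Young replicate 4 held the highest level of all 10 members among the 19 libraries. Across all tested genes, 9.8% were highest in this library. Its Egr2 level (a zinc finger transcription factor) was 4.79 log2 CPM, against a median of 2.15 in the other 5 young libraries, a ratio of 6.3. Arc reached 9.25 against 7.00 log2 CPM, a ratio of 4.77, and Fos, the partner of Jun proteins in the factor AP-1, reached 6.49 against 4.33, a ratio of 4.46. Npas4, a factor induced selectively by calcium influx in neurons, reached 5.35 against 3.49, and Fosb reached 5.19 against 3.44. The smallest difference was that of Egr1, 9.14 against 7.82, which is still a ratio of 2.49. All 10 members were above a difference of 1 on the log2 scale, as were 0.664% of all tested genes, and all 10 were among the 100 genes with the largest difference. The median difference was 1.59 over the members and 0.00 over all tested genes.

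**Figure D1:**
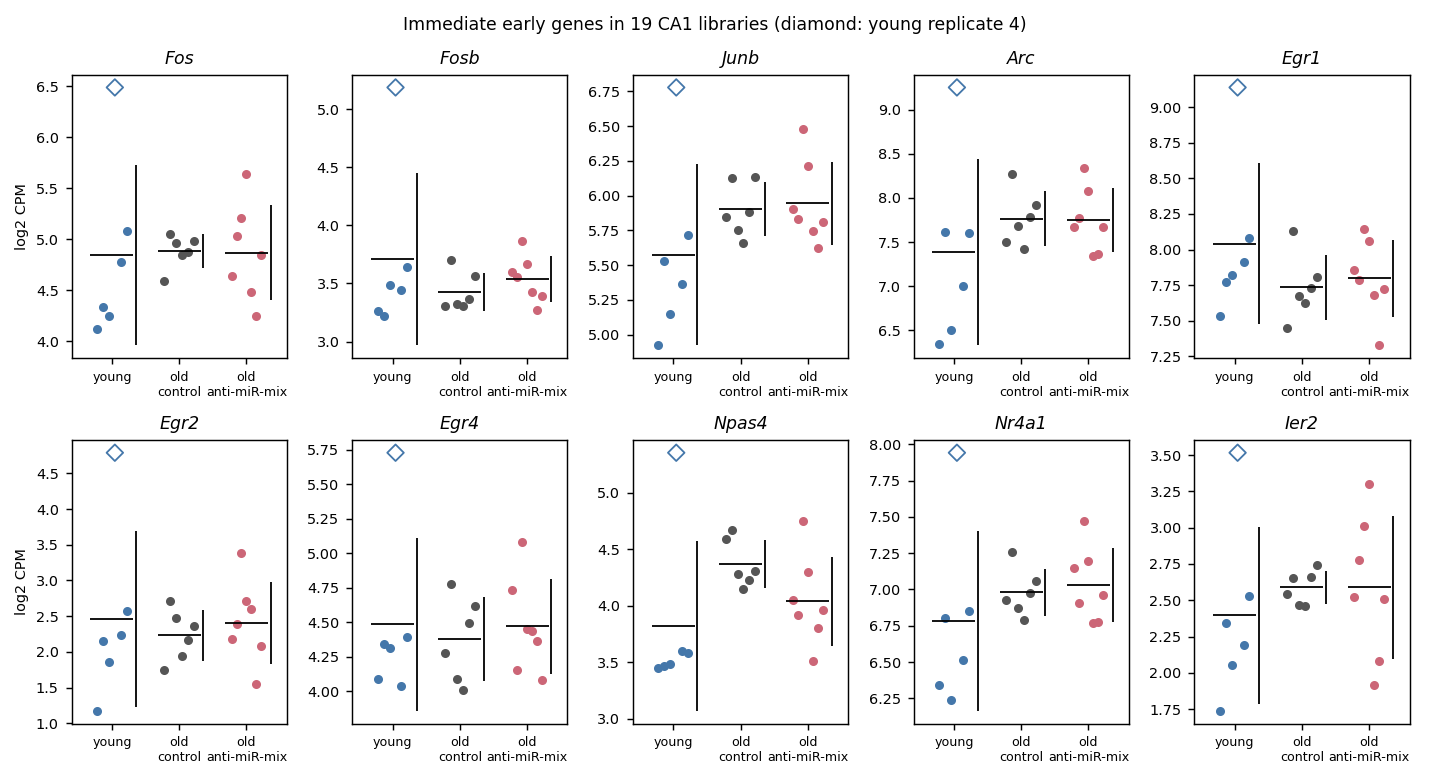
Log2 CPM of each member (y axes, 1 panel per gene with its own range) in each library, grouped on the x axis by age and treatment (6 libraries of young mice, 6 of old control mice and 7 of old anti-miR-mix mice). Horizontal lines are group means, vertical lines mean ± SD, and the diamond is young replicate 4, which is the highest point in all 10 panels.

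Percentiles of the SD were taken among tested genes with a mean of at least 20 reads. The median SD of the members within the young group was 0.70 on the log2 scale, at the 99th percentile. Without replicate 4 it was 0.29, at the 88.2nd percentile. It was 0.20 in old control, at the 80.3rd percentile, and 0.35 in old anti-miR-mix, at the 91.6th percentile. The members thus varied more between mice of 1 group than most of these genes, also outside young replicate 4. Npas4 was the exception among young libraries, where the 5 remaining values lay between 3.45 and 3.60 log2 CPM with an SD of 0.07, at the 31.9th percentile. Arc was the least even in the same 5 libraries, between 6.34 and 7.61 with an SD of 0.59.

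Several further libraries were high or low in nearly every member. Old anti-miR-mix replicate 3 was the highest of its group in 8 of 10 members and replicate 4 in the other 2 (Fos and Ier2). Old control replicate 2 was the highest of its group in 8 members and replicate 6 in Junb and Ier2. At the other end, young replicate 1 was the lowest young library in 7 members, old control replicate 4 the lowest of its group in 7, and old anti-miR-mix replicate 6 in 5. Averaged over the members, young replicate 4 lay at 6.42 log2 CPM, the next library (old anti-miR-mix replicate 3) at 5.57 and the lowest (young replicate 1) at 4.30.

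**Figure D2:**
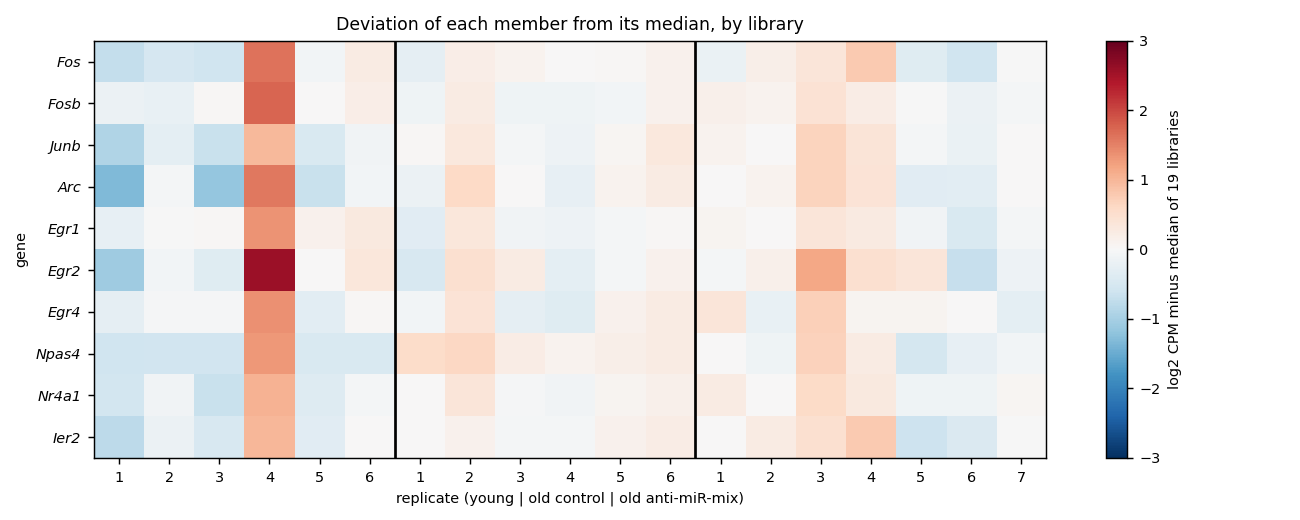
Each cell is the log2 CPM of 1 member (rows) in 1 library (columns, numbered by replicate and split by black lines into the 3 groups in that order of age and treatment, young first) minus the median of that gene over the 19 libraries. The column of young replicate 4 is red in all 10 rows, with Egr2 the strongest, and the columns of old anti-miR-mix replicate 3 and old control replicate 2 are weaker but red in most rows.

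Markers of other cells also differed in young replicate 4, and their part in its member levels was not tested. The dentate granule markers summed to 279 CPM in this library, against 178 to 238 CPM in the other young libraries, and all 8 were above the median of those, with Dsp (desmoplakin) higher by 2.96 and Tdo2 by 1.33 on the log2 scale. Old anti-miR-mix libraries reached 284 CPM for the same list, so the sum itself was not outside the range of the series. The 8 oligodendrocyte markers summed to 11460 CPM, the highest of the 19 libraries, and all 8 were highest in it. The heat shock and stress genes summed to 947 CPM, also the highest, with Hspa1a higher by 1.20 and Hspa1b by 1.13. CA1 pyramidal markers summed to 1123 CPM, within the 1024 to 1246 CPM of the other young libraries.

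**Figure D3:**
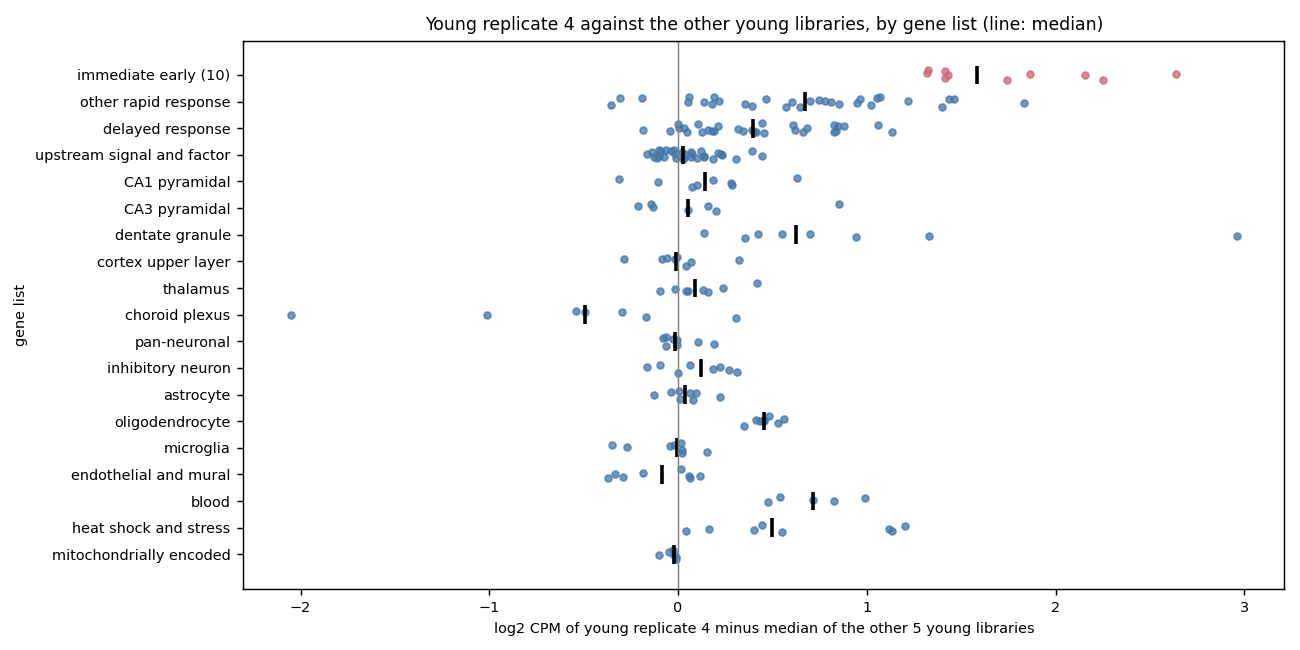
Points are genes, placed by the log2 CPM of young replicate 4 minus the median of the other 5 young libraries (x axis), in rows by gene list, with a line at the median of each list. The members lie between 1.32 and 2.64. The next highest medians are those of blood (0.72), the other rapid response genes (0.67) and dentate granule markers (0.63). The list of upstream signals has a median of 0.03.

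Levels were compared between genes after scaling to library size and exon length (RPKM). In old control tissue Arc was the most abundant member (median 69.7 RPKM), followed by Egr1 (46.3), Nr4a1 (35.3), Junb (25.3), Fos (12.9), Egr4 (9.74), Npas4 (4.72), Ier2 (3.95), Fosb (1.62) and Egr2 (1.40). The ranges of neighbours overlapped for Arc and Egr1, Egr1 and Nr4a1, Fos and Egr4, Npas4 and Ier2, and Fosb and Egr2. Old anti-miR-mix libraries kept this order of medians except that Ier2 (3.74 RPKM) and Npas4 (3.74 RPKM) were level. Young libraries without replicate 4 had Egr1 (50.4) before Arc (41.8), Egr4 (9.24) before Fos (8.55), and Ier2 (2.96) before Npas4 (2.69), and in all 3 pairs the ranges overlapped.

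Fos, Fosb and Junb encode subunits of AP-1. Fos (ENSMUSG00000021250, chr12:85473890-85477273) ranged from 4.12 over a median of 4.56 to 6.49 log2 CPM in young, from 4.59 over 4.92 to 5.06 in old control and from 4.24 over 4.84 to 5.64 in old anti-miR-mix libraries. Fosb (ENSMUSG00000003545), whose spliced form ΔFosB accumulates with repeated activity, ranged from 3.22 over 3.46 to 5.19 in young, from 3.31 over 3.34 to 3.70 in old control and from 3.27 over 3.55 to 3.87 in old anti-miR-mix. Junb (ENSMUSG00000052837), a Jun protein that pairs with Fos, ranged from 4.92 over 5.45 to 6.78, from 5.66 over 5.87 to 6.14 and from 5.62 over 5.83 to 6.48 in the same order of groups. The groups overlapped for all 3 genes. Without replicate 4 the highest young Junb value was 5.71, and 1 old control library and 1 old anti-miR-mix library lay below it. The 3′ end of Junb overlaps Prdx2 on the opposite strand by 351 bases, and the TruSeq RNA v2 kit named in the labels is not a stranded kit, so reads there cannot be assigned to 1 gene. Prdx2 itself differed by -0.05 between young replicate 4 and the other young libraries.

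The EGR genes encode zinc finger factors. Egr1 (ENSMUSG00000038418), also known as Zif268, ranged from 7.53 over 7.87 to 9.14 log2 CPM in young, from 7.45 over 7.70 to 8.13 in old control and from 7.33 over 7.79 to 8.14 in old anti-miR-mix libraries. Egr2 (ENSMUSG00000037868), which also governs myelination by Schwann cells, ranged from 1.17 over 2.19 to 4.79, from 1.74 over 2.27 to 2.71 and from 1.54 over 2.38 to 3.38. Egr4 (ENSMUSG00000071341) ranged from 4.04 over 4.33 to 5.73, from 4.01 over 4.39 to 4.78 and from 4.08 over 4.43 to 5.08. The 3 groups overlapped broadly in each EGR gene, and the medians of 1 gene were within 0.20 of each other.

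Npas4 (ENSMUSG00000045903, chr19:4984355-4990316) encodes a factor that controls the number of inhibitory synapses on active neurons. It ranged from 3.45 over 3.54 to 5.35 log2 CPM in young, from 4.15 over 4.29 to 4.67 in old control and from 3.51 over 3.96 to 4.75 in old anti-miR-mix libraries. All 6 old control libraries lay above the 5 young libraries other than replicate 4, and the single remaining young library lay above all old control libraries. Nr4a1 (ENSMUSG00000023034), an orphan nuclear receptor, ranged from 6.24 over 6.66 to 7.94 in young, from 6.79 over 6.95 to 7.26 in old control and from 6.77 over 6.96 to 7.47 in old anti-miR-mix. Arc (ENSMUSG00000022602) ranged from 6.34 over 7.30 to 9.25, from 7.42 over 7.74 to 8.28 and from 7.34 over 7.67 to 8.34 in the same order. Ier2 (ENSMUSG00000053560), a small nuclear protein of little known function, ranged from 1.74 over 2.27 to 3.52, from 2.46 over 2.60 to 2.74 and from 1.91 over 2.53 to 3.30. For Nr4a1, Arc and Ier2 at least 3 young libraries lay below every old control library.

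Old control mice were compared with young mice to see whether the members change with age. With all 19 libraries, 0 of 10 members passed the adjusted p of 0.05 (edgeR), against 2.67% of all tested genes. An unadjusted p below 0.05 was found in 0 members and in 3483 of all 19286 tested genes. A total of 5 members had a positive and 5 a negative log2 fold change, from -0.79 for Egr2 (SE 0.46, adjusted p = 0.378) to 0.34 for Npas4 (SE 0.28, adjusted p = 0.571). The 95% intervals were wide, -1.74 to 0.16 for Egr2 and -0.24 to 0.92 for Npas4. The direction of Fos depended on the scale, with a fitted fold change of -0.23 and a difference in mean log2 CPM of 0.04. The 2 groups did not overlap in 0 members, against 2.54% of tested genes.

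Without young replicate 4 the log2 fold changes of 9 of the 10 members were positive, with a median of 0.37 against 0.01 over all tested genes. Npas4 was higher in old control by 0.87 (SE 0.16, 95% interval 0.54 to 1.21, adjusted p = 0.00756 by edgeR), 1 of 10 members called against 1.1% of all genes tested. Its groups then did not overlap, as was true of 1 member and of 2.9% of tested genes. The exact two-sided permutation test of its mean log2 CPM gave p = 0.00433, the smallest that 6 against 5 libraries allow. Junb (0.55, SE 0.15, adjusted p = 0.0751), Arc (0.69, SE 0.23, adjusted p = 0.152) and Nr4a1 (0.42, SE 0.13, adjusted p = 0.116) had unadjusted p-values below 0.05 and missed the threshold after adjustment. Fos was at 0.33 (SE 0.20) and Egr1 at -0.08 (SE 0.13), with an interval from -0.34 to 0.19. The left-out library was singled out by its values of these same genes, so the p-values without it describe how the result depends on 1 library and are no independent test.

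**Figure D4:**
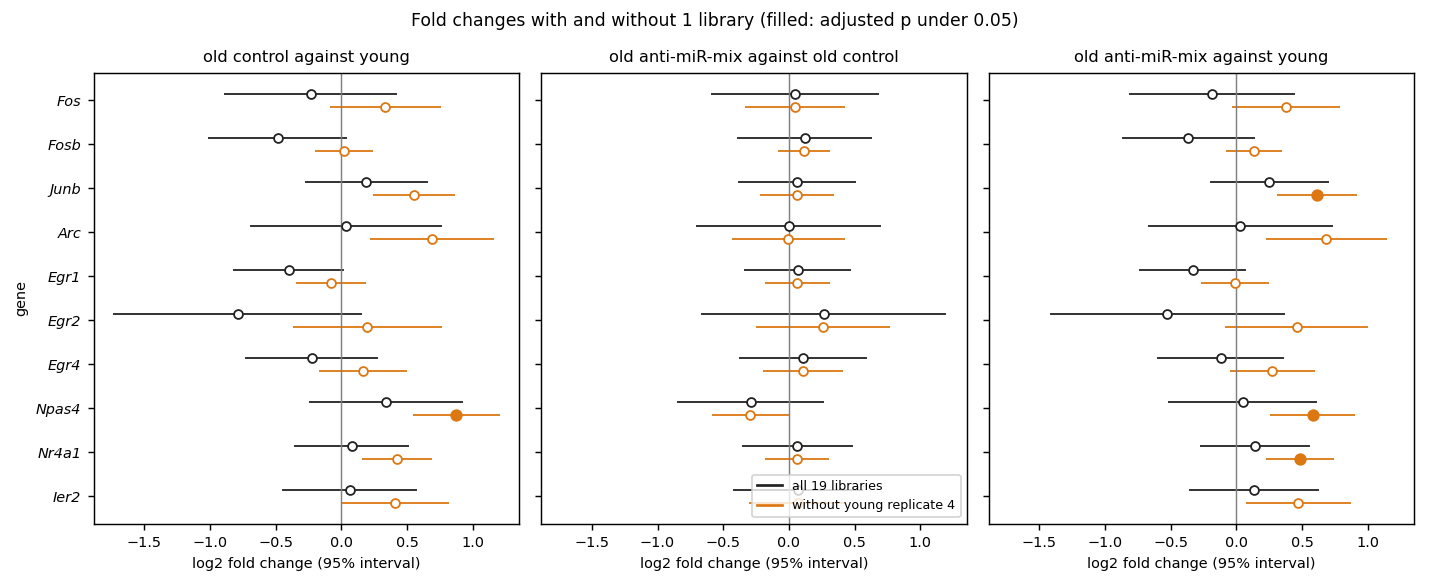
Log2 fold changes from edgeR (x axis) with 95% intervals for each member (rows) in the 3 comparisons (panels), with all 19 libraries in black and without young replicate 4 in orange. Filled points have an adjusted p under 0.05. In both comparisons with young the orange points lie to the right of the black ones for all 10 members, and the only filled points are Npas4 (left), and Junb, Npas4 and Nr4a1 (right).

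Npas4 was higher in old control in each processing group that held both groups of mice, by 1.19 (2 against 1 library), 0.74 (2 against 1) and 0.68 (2 against 2) in mean log2 CPM. None of these groups held young replicate 4, so the direction was already fixed by the lack of overlap and is no further support. With processing group as a factor and without young replicate 4, the fold change was 0.89 (SE 0.16, adjusted p = 0.00757 by edgeR), and Npas4 was again the 1 member called, against 1.47% of all genes. Arc differed by 1.54, -0.06 and 0.55 in the same groups, and Junb by 1.07, 0.18 and 0.47. Arc therefore changed sign between processing groups, while Junb did not.

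The effect of the inhibitors was read from the 2 old groups. No member passed the threshold (0 of 10, against 0.669% of tested genes, edgeR). An unadjusted p below 0.05 was found in 0 members and in 2026 of all 19286 tested genes. Fold changes lay between -0.29 for Npas4 (SE 0.27, adjusted p = 0.767) and 0.26 for Egr2 (SE 0.45, adjusted p = 0.894), with a median of 0.07. The groups overlapped in all members, where 0.498% of tested genes did not overlap. Without young replicate 4, which enters this comparison only through the estimate of spread, 0 members passed, against 0.63% of genes, and the interval for Npas4 was -0.59 to 0.00. By the exact permutation test the lower mean of Npas4 in old anti-miR-mix libraries had p = 0.0897, and it was lower by 0.58, 0.28 and 0.46 in the 3 processing groups that held both groups (1 against 2, 2 against 2 and 1 against 2 libraries).

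Among the members with a seed match, Fos (0.05, interval -0.59 to 0.68), Fosb (0.12, interval -0.40 to 0.63) and Egr2 (0.26, interval -0.67 to 1.20) were not distinguishable from 0, and Npas4 was the only one of the 4 with a fitted value below 0. The direction of most members depended on how processing was handled. With processing group as a factor 0 of 10 fold changes were positive, against 8 of 10 without it, and none passed the threshold in either. With the factor, young replicate 4 also enters this comparison through its processing group. Without that library the same setting gave 3 of 10 positive fold changes, all 10 between -0.37 and 0.06, and 0 passed.

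Old anti-miR-mix mice were also compared with young mice, which share the young libraries with the comparison of old control. With all libraries 0 of 10 members passed, against 6.2% of tested genes (edgeR). An unadjusted p below 0.05 was found in 0 members and in 3785 of all 19286 tested genes. Fold changes lay between -0.52 for Egr2 (SE 0.43) and 0.25 for Junb (SE 0.22). No member had groups that did not overlap, against 2.42% of tested genes. Without young replicate 4, 3 of 10 members passed, against 4.76% of tested genes. Junb was higher by 0.61 (SE 0.15, adjusted p = 0.0155), Npas4 by 0.58 (SE 0.16, adjusted p = 0.0335) and Nr4a1 by 0.49 (SE 0.12, adjusted p = 0.0257, all edgeR). Young and old anti-miR-mix values still overlapped in all 10 members, while 2.81% of tested genes were free of overlap. The exact permutation p was 0.00505 for Junb, 0.00758 for Npas4 and 0.0152 for Nr4a1, each against 5 young libraries. Egr1 was at -0.01 (SE 0.12). Markers of glia also differed between these groups. The 8 microglia markers summed to 519 to 691 CPM in old anti-miR-mix, 445 to 520 CPM in old control and 356 to 454 CPM in young libraries, so that old anti-miR-mix and young did not overlap. The 8 astrocyte markers had a median sum of 7184, 6624 and 6308 CPM in the same order, and all 3 ranges overlapped. Their part in the member values was not tested.

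With processing group as a factor as well, Junb alone passed (0.59, SE 0.16, adjusted p = 0.0443 by edgeR), 1 of 10 members against 3.77% of genes, while Npas4 (0.52, adjusted p = 0.0859) and Nr4a1 (0.48, adjusted p = 0.0717) did not. Junb was higher in old anti-miR-mix in all 4 processing groups, by 0.99, 0.29, 0.18 and 0.08 in mean log2 CPM. The groups held 1 against 1, 2 against 1, 3 against 2 and 1 against 2 libraries. In group 3 the Junb difference was 1.00 when young replicate 4 was left out. Arc (1.33, 0.11, 0.04 and 0.07) and Nr4a1 (0.81, 0.13, 0.05 and 0.09) were higher in all 4 groups as well. Prdx2, which overlaps Junb, had a log2 fold change of -0.05 (adjusted p = 0.643, edgeR) without young replicate 4 and without processing group.

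Each of the 19 libraries was left out in turn. Of these fits only the one without young replicate 4 called any member, and it did so only in the comparisons with young. Leaving out that library moved the fold change of Egr2 between old control and young from -0.79 to 0.20, of Arc from 0.03 to 0.69, of Fos from -0.23 to 0.33 and of Fosb from -0.49 to 0.02. In the other 18 fits the highest fold change of a member in this comparison was 0.38 (Npas4, without old control replicate 4). Without old anti-miR-mix replicate 3 the fold change of Npas4 between old anti-miR-mix and old control was -0.45, and that of Egr2 fell to 0.04.

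**Figure D5:**
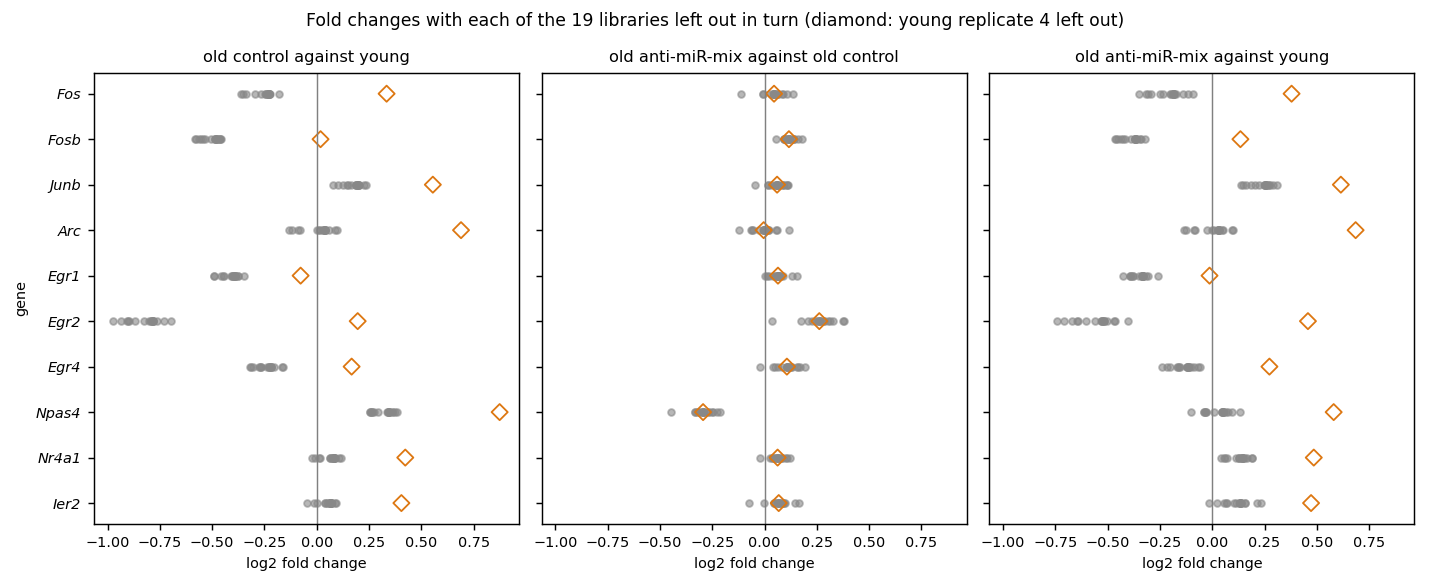
Points are log2 fold changes from edgeR (x axis) of each member (rows) in the 3 comparisons (panels), with 1 of the 19 libraries left out at a time. The diamond marks the fit without young replicate 4, which lies apart from the other 18 points in both comparisons with young and among them in the comparison of the old groups.

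The members moved together from library to library. The Spearman correlation of each of the other 9 members with Fos over the 19 libraries was between 0.47 (Egr4, adjusted p = 0.0462) and 0.88 (Ier2, adjusted p = 9.0e-05, permutation test, Benjamini-Hochberg over 9 relations). Pearson's r was between 0.67 (Egr4, adjusted p = 0.0061, permutation test) and 0.91 (Ier2, adjusted p = 2.2e-05). Without the 2 libraries farthest from the Fos median, young replicate 4 and old anti-miR-mix replicate 4, r was between 0.63 and 0.85 for 8 members. It was 0.32 for Egr4 (permutation p = 0.212, n = 17), so the relation of Egr4 with Fos rests on those libraries. After each value was centred on its processing group mean and young replicate 4 was then left out, r was between 0.47 (Egr4) and 0.90 (Ier2). The mean of processing group 3 still included that library, so these values are not free of it.

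Within old control libraries (n = 6) the correlation with Fos was between -0.12 for Npas4 and 0.92 for Egr2. Within old anti-miR-mix libraries (n = 7) it was between 0.17 for Egr4 and 0.95 for Ier2, with Npas4 at 0.69. The difference between the groups was not tested, and 6 libraries give a wide error.

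The 5 genes outside the list whose levels were most like the members across the 19 libraries were taken from 15950 genes with a mean of at least 20 reads, by Spearman correlation after centring on group means. They were 1700016P03Rik (0.95), Chrm4 (0.88), Midn (0.88), Stk40 (0.87) and Trib1 (0.87). Without young replicate 4 the correlations were 0.84, 0.77, 0.83, 0.78 and 0.87. The first, 1700016P03Rik, is a noncoding transcript at chr11:75172560-75177633 on the + strand (GRCm38), and the sequences of miR-212-3p (chr11:75173443-75173464) and miR-132-3p (chr11:75173723-75173744) lie inside it on the same strand. In young replicate 4 it was at 3.34 log2 CPM, against a median of 1.27 in the other young libraries. With all libraries its fold change between old control and young was 0.21 (adjusted p = 0.780), and without young replicate 4 it was 0.83 (SE 0.18, adjusted p = 0.0249, edgeR). For old anti-miR-mix against young the fold changes were 0.10 (adjusted p = 0.903) and 0.72 (SE 0.17, adjusted p = 0.0183). The gene was picked for its likeness to the members and was high in the left-out library, so these p-values are no independent test. The mature microRNAs themselves were not measured in these libraries.

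A list of 30 other rapid response genes, which are induced on the same time scale, was examined as a group. In old control against young 2 of 30 passed, against 2.67% of all tested genes, both lower, namely Klf2 at -0.71 (SE 0.19) and Klf4 at -0.91 (SE 0.24), Krüppel-like factors that also mark endothelial cells. Without young replicate 4 these did not pass, and 2 other genes of the 30 did, against 1.1% of all tested genes. Btg2, an antiproliferative gene, was higher by 0.96 (SE 0.15, adjusted p = 0.0026) and Dusp1, a phosphatase of MAP kinases, by 0.69 (SE 0.16, adjusted p = 0.0421, both edgeR). Both were high in the left-out library (rank 1 and 2 of the 19 libraries), so these p-values are no independent test either. In old anti-miR-mix against young 2 passed, against 6.2% of all tested genes, Atf3 at 1.20 (SE 0.33, adjusted p = 0.0338) and Maml3 at 0.37 (SE 0.10, adjusted p = 0.0254). Without young replicate 4, 7 of 30 passed, against 4.76% of all tested genes, and all were higher, led by Atf3 (1.49), Btg2 (0.76), Ccn1 (1.01) and Dusp1 (0.63). In old anti-miR-mix against old control 0 of 30 passed (edgeR), against 0.669% of all tested genes. An unadjusted p below 0.05 was found in 3 of the 30 and in 2026 of all 19286 tested genes. The most abundant of the list, the clock gene Per1, the AP-1 subunit Fosl2 and Arf4, were at 0.10, 0.04 and -0.04. The median fold change of the list was -0.05, 0.10 and 0.01 for age alone, for the inhibitors in old mice, and for old anti-miR-mix against young.

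Delayed response genes follow the first wave and include Bdnf and Homer1. Of 30 genes 1 passed in old control against young, near the 2.67% of all tested genes, namely Pcsk1, a prohormone convertase, at -0.51 (SE 0.12, adjusted p = 0.0224). A single gene (1 of 30) passed in old anti-miR-mix against young, where 6.2% of all tested genes did, the nuclear receptor Nr4a2 at -0.24 (SE 0.07, adjusted p = 0.0432, edgeR). Between the old groups 0 passed, against 0.669% of all tested genes. There 3 of the 30 had an unadjusted p below 0.05, as did 2026 of all 19286 tested genes. The most abundant, Plk2, Rgs4 and Scg2, were at -0.11, -0.01 and -0.07 between the old groups. Neither Pcsk1 nor Nr4a2 passed without young replicate 4. Rasl11a was then the 1 gene of 30 called (0.52, old anti-miR-mix against young), against 4.76% of all tested genes. In young replicate 4 itself, 27 of the 30 delayed genes were above the median of the other young libraries, 17 were the highest of the series, and their median difference was 0.40. Of genes picked after their values were seen, Homer1, a scaffold of the postsynapse, differed by 0.85, Nptx2 by 1.13 and Bdnf by 0.62. The corresponding numbers for the other rapid response genes were 27 of 30 above, 15 highest and a median difference of 0.67.

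The list of 32 upstream signals and factors holds, among others, NMDA receptor subunits, calcium-dependent kinases, CREB and SRF cofactors. In old control against young 0 passed (edgeR), against 2.67% of all tested genes, and between the old groups 0, against 0.669%. An unadjusted p below 0.05 was found in 5 of 32 in the first comparison, and in 3483 of all 19286 tested genes. In the second it was found in 1 of 32 and in 2026 of all tested genes. The most abundant, the kinase subunit Camk2a, the calcineurin subunit Ppp3ca and the NMDA receptor subunit Grin2b, were at 0.16, 0.13 and 0.21 in the first and at -0.08, -0.13 and -0.18 in the second of these comparisons. In old anti-miR-mix against young 3 of 32 passed, against 6.2% of all tested genes, the kinase Camk4 at -0.26 (SE 0.06, adjusted p = 0.00766) and the factor Creb1 at -0.16 (SE 0.04, adjusted p = 0.034), both lower, and the kinase Rps6ka1, higher at 0.30 (SE 0.05, adjusted p = 0.00114). Camk4 and Rps6ka1 passed without young replicate 4 as well. Their median difference in young replicate 4 was 0.03, and 18 of 32 were above the median of the other young libraries.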

How the data were processed

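RNA was sequenced from the CA1 tissue of 19 mice (6 young, 6 old control, 7 old anti-miR-mix), 1 animal per library, grouped by the descriptions given to each library. Per the labels and the study's methods, the authors made polyadenylated RNA libraries with a TruSeq kit, read single 50-base ends, aligned them with STAR 2.5.2b to mm10 and deposited raw counts per Ensembl gene from featureCounts (Subread 1.5.1). Strand and multi-mapping options are not given in the sources used here. The authors also deposited log2 values for 18761 genes, which equalled log2(CPM + 1) minus a slope for each gene multiplied by a number from 1 to 4 (to within 3.4e-08). That number is called the processing group, and its meaning is not given in the sources used here. All count columns were assigned, with 0 left over.

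Counts were normalised by TMM and tested across all 19286 genes with at least 5 reads in 50% of libraries by edgeR 4.0.16 (quasi-likelihood, 3 groups, no covariate, R 4.3.3), with Benjamini-Hochberg adjustment and a threshold of 0.05. Log2 CPM used a prior count of 2. DESeq2 1.42.0, limma 3.58.1, other filters, scalings, covariates and each left-out library were alternatives. Depth was 26653511 to 38908947 reads. The edgeR step was tested on simulated data. Single members were also compared by exact permutation tests. Symbols and coordinates came from GENCODE M21 (GRCm38), and 48349 of 48709 identifiers matched. Sequences came from RefSeq tables and GENCODE transcripts. Beside the members, the text names the 5 genes most like them over the 19 libraries, up to 4 genes of each list past the threshold per direction and, where none passed, the 3 with the highest mean count. The marker, heat shock and delayed response genes given for young replicate 4 were chosen after their values were seen. The members and lists were chosen with earlier results of these data known. P-values set differences between groups against the spread between these libraries.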

Additional observations from a re-analysis of the deposited data

Results flagged for a closer look

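The highest young value stood apart from its group by more than Dixon's 95% limit for 6 libraries in 5 members, in each case in young replicate 4. These were Egr1 at 9.14, Nr4a1 at 7.94, Egr4 at 5.73, Npas4 at 5.35 and Fosb at 5.19 log2 CPM. The gap to the next young library was between 0.641 and 0.921 of the range of the group in these members, above the limit of 0.625. It was between 0.555 and 0.615 in Fos, Junb, Arc, Egr2 and Ier2. No value of either old group passed its limit. Of 30 combinations of gene and group tested 5 passed, where chance passes about 1 in 20, and the members are correlated, so the 5 are not independent.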

How the results depend on the processing

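With all 19 libraries, 0 members passed in any comparison under the planned tests, filters, scalings and covariates. With 1 library left out, the number that passed lay between 0 and 1 in old control against young and between 0 and 3 in old anti-miR-mix against young, above 0 only without young replicate 4, and was 0 between the old groups. Settings combined with leaving out young replicate 4 were added after seeing the data. For old control against young, processing group as a factor, processing group as a linear number, old control replicates 5 and 6 summed, and the replicate block each then called 1 member (Npas4), DESeq2 called 2 (Npas4 and Nr4a1) and limma on the deposited log2 values 2 (Npas4 and Junb). For old anti-miR-mix against young the numbers were 1, 3, 3, 1, 3 and 4 in the same order, with Junb in each. Of all tested genes these settings called 1.47%, 1.08%, 0.676%, 1.93%, 2.46% and 1.42% in old control against young and 3.77%, 4.54%, 4.49%, 4.67%, 6.43% and 5.32% in old anti-miR-mix against young. With that library left out, adjusted p over 7 settings was 1.57e-05 to 0.0173 for Npas4 in old control against young and, in old anti-miR-mix against young, 0.00776 to 0.0443 for Junb, 0.00574 to 0.0859 for Npas4 and 0.00405 to 0.0717 for Nr4a1. Over the 29 settings that kept it the ranges were 0.228 to 0.722, 0.288 to 0.809, 0.703 to 0.993 and 0.486 to 0.95.

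Replicate numbers were not used as pairs, since correlations of same-numbered libraries ran from -0.33 to 0.36 and only 8 of 36 comparisons had the highest correlation at the own number. With the block for that number 0 members passed in each comparison, while over all genes it moved the calls from 514 to 651, 129 to 249 and 1196 to 1192 (old control against young, between the old groups, old anti-miR-mix against young). Over all genes, other settings moved the calls by over 1.5 times in old control against young to 323 (no filter), 914 (DESeq2) and 305 (old control replicates 5 and 6 summed), and without young replicate 4 to 1.1% of genes from 2.67%, and between the old groups to 48 (those groups alone), 9 (processing group as a factor), 267 (DESeq2) and 33 (replicates 5 and 6 summed). Leaving out 1 library moved them as far for 6 of 19 libraries in old control against young, namely young replicate 4 and old control replicates 1 (335), 2 (325), 3 (277), 5 (289) and 6 (313). It did so for 10 of 19 between the old groups, namely old control replicates 1 (32), 2 (24), 5 (23) and 6 (39) and old anti-miR-mix replicates 1 (247), 2 (41), 3 (35), 4 (33), 5 (42) and 6 (229), and for 0 of 19 in old anti-miR-mix against young.

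The sign of a member turned in the values that follow, and none of these passed the threshold. The cause was not tested. With processing group as a factor, for age alone Fos was 0.14 and Egr4 0.029, between the old groups Fos was -0.34, Fosb -0.16, Junb -0.18, Egr1 -0.16, Egr2 -0.43, Egr4 -0.13, Nr4a1 -0.12 and Ier2 -0.20. With limma on the deposited log2 values, for age alone Fos was 0.069, between the old groups Fos was -0.015, for old anti-miR-mix against young Fos was 0.054 and Egr4 0.0042. As differences of mean log2 CPM with a prior count of 0.5, for age alone Fos was 0.044, between the old groups Fos was -0.016 and Ier2 -0.0017, for old anti-miR-mix against young Fos was 0.028. As differences of group medians, for age alone Fos was 0.37, Egr2 0.076 and Egr4 0.059, between the old groups Fos was -0.077, Junb -0.036 and Ier2 -0.075, for old anti-miR-mix against young Fos was 0.29, Fosb 0.091, Egr2 0.19 and Egr4 0.11. With a block for the replicate number, between the old groups Fos was -0.019, for old anti-miR-mix against young Egr4 was 0.017. With old control replicates 5 and 6 summed, between the old groups Arc was 0.011. With young replicate 4 left out and processing group as a factor, between the old groups Junb was -0.017. Single signs were followed in that setting only for Junb, Npas4 and Nr4a1. In all, 3 of 10 members were positive there, against 8 of 10 without the factor, so further members turned.

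With 1 library left out, values for old control against young ran from -0.36 to 0.33 for Fos, -0.58 to 0.0180 for Fosb, -0.13 to 0.69 for Arc, -0.97 to 0.20 for Egr2, -0.32 to 0.17 for Egr4, -0.0208 to 0.42 for Nr4a1 and -0.0458 to 0.40 for Ier2. With 1 library left out, those between the old groups ran from -0.11 to 0.14 for Fos, -0.0474 to 0.11 for Junb, -0.12 to 0.12 for Arc, -0.0198 to 0.20 for Egr4, -0.0220 to 0.12 for Nr4a1 and -0.0759 to 0.16 for Ier2. With 1 library left out, those for old anti-miR-mix against young ran from -0.35 to 0.38 for Fos, -0.46 to 0.13 for Fosb, -0.14 to 0.69 for Arc, -0.74 to 0.46 for Egr2, -0.24 to 0.27 for Egr4, -0.10 to 0.58 for Npas4 and -0.0144 to 0.47 for Ier2. Of the bounds, only the 0.58 of Npas4, without young replicate 4, passed the threshold. The lowest member count was 61 reads (Egr2).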
